A study of Mus musculus with 6 samples.

Results

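Forkhead genes encode transcription factors that share the winged-helix forkhead domain. The 44 genes described here are all symbols of the deposited count table that begin with Fox, a letter from a to s and a digit, out of 22272 distinct symbols. Of the 44, 24 had enough counts to be tested, 8 had a few counts and 12 had none in any library. RNA was sequenced from the C2C12 line, mouse myoblasts that divide as muscle precursors, at day 0, before differentiation. In 3 samples the cells overexpressed ChREBP-beta, the short and highly active isoform of the glucose-responsive factor encoded by Mlxipl, and in 3 samples, labelled wild type, they carried green fluorescent protein (GFP). The labels do not say how the cells were made to express either protein, whether clones or mixed cultures were used, or whether replicates were separate cultures, so a p-value here reflects only how these 3 and 3 samples vary, and that variation may be technical.

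Most forkhead factors bind DNA as single units at a shared core sequence, and the subfamilies differ mostly outside the DNA-binding domain. FOXO factors are kept out of the nucleus when insulin and growth factors activate the kinase AKT, and in muscle they turn on genes of protein breakdown, autophagy and fasting metabolism. FOXK factors bind many of the same sites and restrain autophagy genes, and FOXM1 drives genes of mitosis in dividing cells. Several, but not all, of the FOXC, FOXD, FOXF, FOXL and FOXS genes mark mesenchyme, stroma and the cells around vessels in the embryo.

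Total counts per library lay between 17600238 and 19163834, and the groups overlapped in depth. Mlxipl was read at 222, 215 and 220 CPM (counts as a share of the library's total, with libraries scaled by edgeR's TMM factors throughout) with ChREBP-beta, against 0.576, 0.719 and 0.501 CPM with GFP, so its level fits the labels of all 6 libraries. All 7 myoblast markers tested were lower with ChREBP-beta, and their summed level was 215 to 225 CPM with ChREBP-beta and 510 to 537 CPM with GFP. Of these, Myod1, the factor that sets muscle identity, averaged 1.23 ± 0.340 CPM with ChREBP-beta and 30.8 ± 1.21 CPM with GFP (SD, n = 3 each). The satellite cell factor Pax7 had 6 counts over the ChREBP-beta libraries, all in replicate 3, and 139 over the GFP libraries.

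Promoter sequences are shown for 3 members: Foxd1, which changed most, Foxk2, the most abundant, and Foxc1, one of the 5 that fell. They are from RefSeq (GRCm38.p6, plus strand in each case) and run from 250 bases before to 50 bases after the annotated start. Capitals mark the CCAAT box, a common promoter element, read on either strand as CCAAT or ATTGG. Foxd1 is on chr13:98353995-98354294, Foxk2 on chr11:121259737-121260036 and Foxc1 on chr13:31806396-31806695.
Foxd1: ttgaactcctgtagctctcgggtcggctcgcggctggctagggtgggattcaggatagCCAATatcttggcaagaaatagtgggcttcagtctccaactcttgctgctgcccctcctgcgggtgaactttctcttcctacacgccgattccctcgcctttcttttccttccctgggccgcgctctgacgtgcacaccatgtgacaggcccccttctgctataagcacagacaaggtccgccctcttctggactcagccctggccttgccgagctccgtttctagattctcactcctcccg
Foxk2: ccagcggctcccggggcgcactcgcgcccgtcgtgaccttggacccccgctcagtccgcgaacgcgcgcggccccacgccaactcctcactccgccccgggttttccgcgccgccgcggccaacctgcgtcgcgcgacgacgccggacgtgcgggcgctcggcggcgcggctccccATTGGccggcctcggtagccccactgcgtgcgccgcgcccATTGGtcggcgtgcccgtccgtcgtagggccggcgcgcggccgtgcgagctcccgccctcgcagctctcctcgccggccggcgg
Foxc1: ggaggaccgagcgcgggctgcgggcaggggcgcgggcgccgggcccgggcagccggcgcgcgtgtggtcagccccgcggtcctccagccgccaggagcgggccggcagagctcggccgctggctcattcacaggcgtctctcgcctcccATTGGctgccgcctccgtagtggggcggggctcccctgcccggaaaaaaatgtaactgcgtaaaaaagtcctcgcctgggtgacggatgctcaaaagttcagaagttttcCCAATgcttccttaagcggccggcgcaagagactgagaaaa

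The GC content of these windows was 57.7% at Foxd1, 79.3% at Foxk2 and 67.3% at Foxc1. The E-box CACGTG, which is the same on both strands and is bound in pairs by ChREBP with its partner Mlx, was in none of the 3. Across the 33 promoter windows that matched 28 of the 44 members, CACGTG was found in 1 (3.03%), at Foxd3, which had no counts, against 7.15% of all 32851 windows of that length. The remaining members, Foxf1 and Foxq1 among them, had no window and were not searched. The looser E-box CANNTG, which includes CACGTG and the sites of myogenic factors, was in 66.7% of the members' windows and 72.3% of all. The forkhead core TGTTTAC, searched on both strands, was in 3.03% of the members' windows, at Foxa1, and 3.65% of all, and the CCAAT box in 45.5% and 37.4%. A match describes the letters of the window and is not a binding site.

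Among the 24 forkhead genes tested, 8 were higher with ChREBP-beta, 5 were lower and 11 did not pass the test (adjusted p below 0.05 in edgeR's quasi-likelihood test, by Benjamini-Hochberg over the whole table). That is 54.2% called, where 58.7% of all 12166 genes tested were called (29.5% higher and 29.3% lower), so the members' share was near the background. Foxd1 and Foxf1 rose by more than 9-fold, Foxq1 and the scarcely read Foxa2 fell by more than 2-fold, and every other called member changed by less than 2-fold. These 4 of the 24 tested compare with 11.5% of all genes called with at least a 2-fold change. The groups did not overlap for 13 of the 24, against 63.2% of all genes tested. The median log2 fold change of the members tested was 0.02, and the median size of change without regard to sign was 0.22, against -0.0040 and 0.23 over all genes tested.

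**Figure D1:**
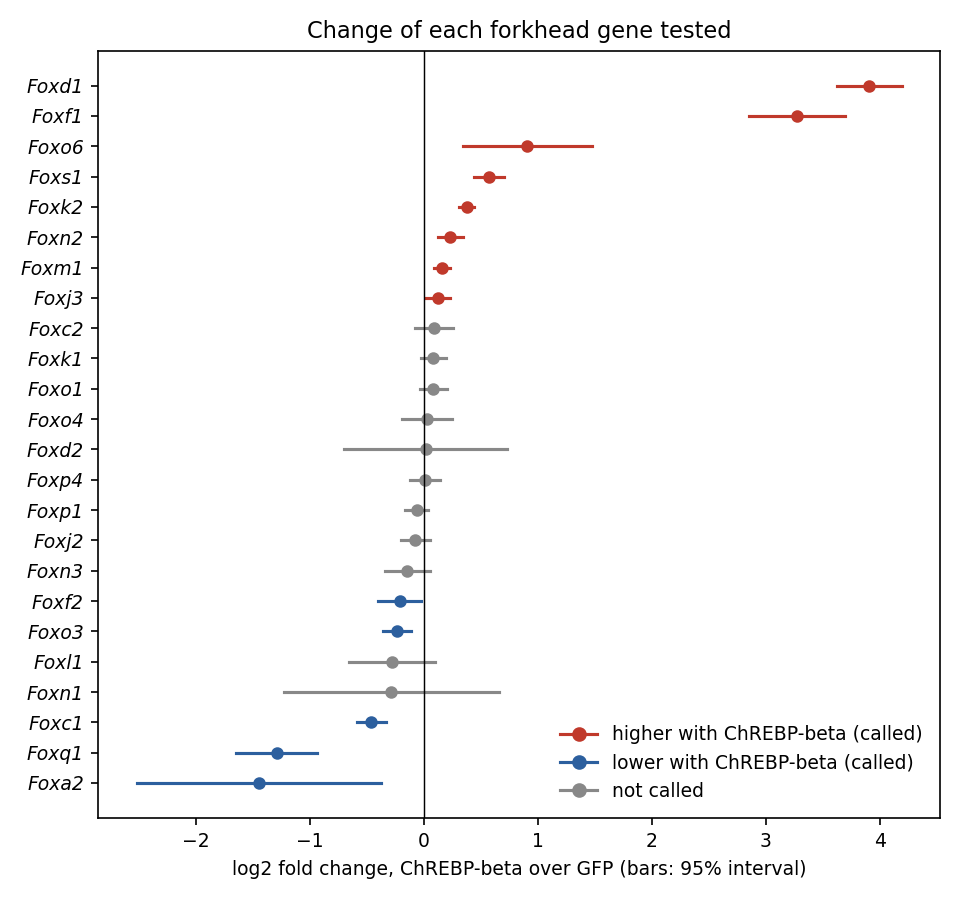
Each row is a forkhead gene tested. The x axis is the log2 fold change of ChREBP-beta over GFP with its 95% interval (edgeR, n = 3 per group), and colour gives the call. Foxd1 and Foxf1 stand apart on the higher side at 3.91 and 3.28, and Foxa2 and Foxq1 lie lowest at -1.45 and -1.29.

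Foxd1, a marker of stromal progenitors in the developing kidney and of the developing retina, showed the largest change (ENSMUSG00000078302.5; chromosome 13, 98354242 to 98359305, plus strand, GRCm38). Its level was 26.8, 24.8 and 23.1 CPM in ChREBP-beta libraries 1 to 3 and 1.46, 2.05 and 1.45 CPM in GFP libraries 1 to 3. All ChREBP-beta libraries were far above all GFP libraries, on 1357 counts over the ChREBP-beta and 91 over the GFP group. The log2 fold change was 3.91 (SE 0.136, adjusted p = 7.37e-18), or 15.01-fold, the rise with rank 70 among the 12166 genes tested. In expression per kilobase of exon, which allows genes to be compared, Foxd1 ranked 14th of the 24 members tested with ChREBP-beta, at 4.91 ± 0.365 CPM per kilobase, and 23rd with GFP, at 0.326 ± 0.0673 CPM per kilobase (SD, n = 3 each).

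Foxf1, a factor of lung and gut mesenchyme and of embryonic vessels, was the other member with a large rise (ENSMUSG00000042812.5; chromosome 8, 121084386 to 121088144, plus strand, GRCm38). It had 11.6, 10.1 and 10.1 CPM with ChREBP-beta, against 1.05, 0.719 and 1.504 CPM with GFP, with no overlap. The log2 fold change was 3.28 (SE 0.204, adjusted p = 8.13e-13), or 9.69-fold, on 578 counts with ChREBP-beta and 60 with GFP. Markers of lung epithelium were also read, and unevenly: the summed level of the 5 markers was 91.7, 92.2 and 70.5 CPM in ChREBP-beta libraries 1 to 3 and 0.837, 135 and 94.5 CPM in GFP libraries 1 to 3. None of the 5 was at 0 in all libraries, and 1 of them was called higher. The part of these markers in the rise of Foxf1 was not tested. Without any 1 library the log2 fold change of Foxf1 stayed between 3.06 and 3.58.

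Foxs1, a gene of pericytes and of cells derived from the neural crest, rose less but at a much higher level. It stood at 41.3, 39.8 and 43.3 CPM with ChREBP-beta, against 28.1, 29.5 and 26.2 CPM with GFP (log2 fold change 0.57, SE 0.0638, adjusted p = 4.00e-08). Its transcript is short, so that per kilobase of exon it ranked 2nd of the 24 members with ChREBP-beta (31.6 ± 1.34 CPM per kilobase) and 3rd with GFP (21.3 ± 1.28; SD, n = 3 each). Of 5 pericyte markers tested, Pdgfrb, Cspg4, Abcc9 and Kcnj8 were higher with ChREBP-beta and Notch3 was lower. The summed level of all 6 markers listed was 684 to 695 CPM with ChREBP-beta and 388 to 407 CPM with GFP. None was at 0 in all libraries. Most of that sum was Pdgfrb, at 502 CPM with ChREBP-beta and 274 CPM with GFP. Abcc9 and Kcnj8 were scarcely read, with 52 and 67 counts with ChREBP-beta and 6 and 8 with GFP. The other marker, Rgs5, was too rarely read to test and had fewer counts with ChREBP-beta (10) than with GFP (28). The part of these markers in the rise of Foxs1 was not tested, and in bulk RNA more cells of a type and more RNA per cell cannot be told apart.

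Of the other mesenchymal members, Foxc1 and Foxf2 fell and Foxc2, Foxl1 and Foxd2 were not called. Foxc1, a factor of the somites, skull and vessels, had 29.2, 27.9 and 31.0 CPM with ChREBP-beta, against 41.1, 40.8 and 39.2 CPM with GFP, and fell by 0.46 on the log2 scale (SE 0.0617, adjusted p = 6.48e-07). All ChREBP-beta libraries were below all GFP libraries. Foxf2, the paralog of Foxf1 in gut mesenchyme and brain pericytes, had 14.3, 12.9 and 13.8 CPM with ChREBP-beta, against 15.9, 16.3 and 15.3 CPM with GFP. Its log2 fold change was -0.21 (SE 0.0910), close to the threshold at an adjusted p of 0.0481, and the adjusted p ranged from 0.0176 to 0.154 over the 13 alternatives, 9 of which ended the call, among them leaving out ChREBP-beta replicate 2 or 3 or any GFP library. Foxc2, a factor of lymphatic vessels and brown fat, averaged 19.7 ± 0.877 CPM with ChREBP-beta and 18.6 ± 0.557 CPM with GFP (SD, n = 3 each; adjusted p = 0.377). Foxl1, a gene of gut subepithelial mesenchyme, averaged 3.96 ± 0.574 and 4.80 ± 0.309 CPM in ChREBP-beta and GFP libraries (adjusted p = 0.193). Its count was not whole in 1 library, and such fractional counts are called split reads below. Foxd2, the paralog of Foxd1, was read at 1.24 ± 0.282 CPM with ChREBP-beta and 1.23 ± 0.274 CPM with GFP, and its 95% interval of the log2 fold change, -0.70 to 0.73, was wide.

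Foxq1, a gene of hair and epithelia, showed the clearest fall (ENSMUSG00000038415.10; chromosome 13, 31556134 to 31560976, plus strand, GRCm38). Its values were 2.50, 3.56 and 4.34 CPM with ChREBP-beta, against 8.79, 8.35 and 8.30 CPM with GFP. The libraries of each group were well separated, and the log2 fold change was -1.29 (SE 0.172, adjusted p = 6.14e-07), or 2.45-fold lower. Foxa2, a factor of endoderm, liver and lung epithelium, had only 16 counts over the ChREBP-beta and 45 over the GFP libraries. It stood at 0.381, 0.106 and 0.405 CPM with ChREBP-beta and 0.994, 0.830 and 0.613 CPM with GFP (log2 fold change -1.45, SE 0.519, adjusted p = 0.0200). Its call was lost without ChREBP-beta replicate 2 (adjusted p = 0.118), GFP replicate 1 (0.0733) or GFP replicate 2 (0.0569), and with no filter (0.0577). With a minimum mean CPM of 5, Foxa2 was not tested. The liver markers listed summed to 14.7 to 20.0 CPM with ChREBP-beta, and to 0.209, 0.0553 and 23.5 CPM in GFP libraries 1 to 3, and the lung markers are given above with Foxf1. The part of liver or lung RNA in the Foxa2 counts was not tested.

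**Figure D2:**
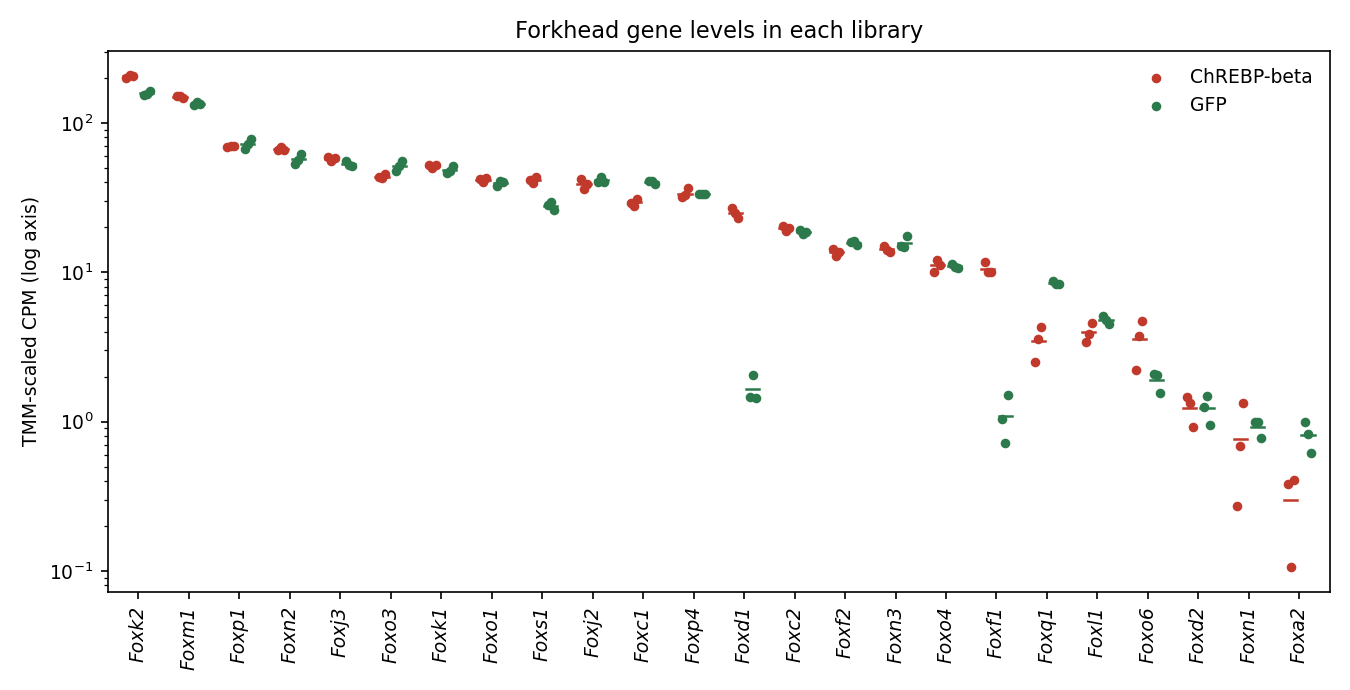
Each point is a library and each bar a group mean (n = 3 per group), on a log axis of TMM-scaled CPM, with the 24 forkhead genes tested ordered by the mean of the higher group. Foxk2 and Foxm1 lie highest, and Foxd1 and Foxf1 show the widest gaps between ChREBP-beta and GFP libraries.

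Some called members sit side by side in the genome with members that were not called. On chromosome 8, Foxf1, Foxc2 and Foxl1 lie in that order on the plus strand within 46.3 kb (GRCm38), with Foxc2 beginning 28.0 kb after the end of Foxf1. The log2 fold changes were 3.28 for Foxf1, 0.09 for Foxc2 and -0.28 for Foxl1, of which Foxf1 alone passed the test. Mthfsd, a gene on the opposite strand that lies between Foxf1 and Foxc2, averaged 6.66 ± 0.626 CPM with ChREBP-beta and 6.72 ± 1.22 CPM with GFP (SD, n = 3 each; adjusted p = 0.940). On chromosome 13, Foxq1, Foxf2 and Foxc1 lie in that order within 256 kb, all on the plus strand. All were called lower, with log2 fold changes of -1.29, -0.21 and -0.46. The call of Foxf2 was close to the threshold (adjusted p = 0.0481) and was lost under most alternatives, as given above. Around Foxd1, elsewhere on that chromosome, the tested genes within 100 kb were Btf3, 37236 bases away, Ankra2 and Utp15, and they were higher by 1.18-fold, 1.19-fold and 1.60-fold (adjusted p = 3.50e-07, 0.0407 and 3.90e-11). Ankra2 lost its call under 8 of 13 alternatives, among them leaving out ChREBP-beta replicate 1 or 2 or GFP replicate 1 or 2, with an adjusted p of up to 0.135. The genes around these members were looked up after their changes were known, and 29.5% of all genes tested were called higher and 29.3% lower.

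Foxk2 was the most abundant member by counts and per kilobase in both groups, and carried the largest gain in CPM. It stood at 201, 208 and 207 CPM with ChREBP-beta, against 155, 157 and 163 CPM with GFP, with all ChREBP-beta libraries above (log2 fold change 0.38, SE 0.0323, adjusted p = 3.65e-10). FOXK factors promote aerobic glycolysis in muscle and fat cells of the mouse. Foxk1, a gene long known from muscle satellite cells as myocyte nuclear factor, was read at 52.3, 49.97 and 52.4 CPM with ChREBP-beta and 46.4, 48.0 and 51.8 CPM with GFP. Its libraries overlapped and it did not pass the test (log2 fold change 0.08, 95% interval -0.03 to 0.20, adjusted p = 0.199).

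Foxm1, the mitotic activator, had 151, 151 and 148 CPM with ChREBP-beta, against 132, 137 and 133 CPM with GFP, a small rise without overlap (log2 fold change 0.16, SE 0.0334, adjusted p = 2.25e-04). Its listed targets did not move as a body: of 24 tested, 5 were higher, 5 lower and 14 not called, or 41.7% called beside 58.7% of all genes, with a median log2 fold change of -0.02. With scaling by library size alone the split was 4 higher and 9 lower. Top2a, the topoisomerase that untangles chromosomes, averaged 645 ± 9.56 CPM with ChREBP-beta and 556 ± 15.8 CPM with GFP. Aurkb, a kinase of chromosome segregation, rose 1.203-fold, the mitotic cyclin gene Ccnb1 1.13-fold and Ccna2, another cyclin gene whose counts include split reads in all 6 libraries, 1.11-fold (adjusted p = 3.57e-05, 1.23e-04 and 1.20e-04). On the lower side, Cdc25c, a phosphatase that activates CDK1, averaged 17.4 ± 0.916 CPM with ChREBP-beta and 23.4 ± 0.559 CPM with GFP (SD, n = 3 each; adjusted p = 5.82e-05). Kif20a, a kinesin of cell division with split reads in all 6 libraries, was 1.16-fold lower, and the centromere genes Cenpf and Cenpe were each 1.11-fold lower. None of the 24 targets passed the test with a 2-fold change, beside 11.5% of all genes.

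The FOXO genes moved in different directions. Foxo3, the member that drives muscle atrophy genes in mice, had 43.5, 42.5 and 45.2 CPM with ChREBP-beta, against 48.0, 51.2 and 55.4 CPM with GFP, so that all ChREBP-beta libraries were below (log2 fold change -0.24, SE 0.0582, adjusted p = 0.00121). Foxo1, which acts in muscle and liver metabolism, was read at 42.4, 40.1 and 42.6 CPM with ChREBP-beta and at 37.6, 40.7 and 39.9 CPM with GFP. Its libraries overlapped (log2 fold change 0.08, 95% interval -0.04 to 0.20, adjusted p = 0.237). Foxo4 averaged 11.2 ± 1.03 CPM with ChREBP-beta and 10.9 ± 0.315 CPM with GFP (SD, n = 3 each; adjusted p = 0.844). Foxo6, known mainly from brain and also described in muscle, was low, at 2.23, 3.77 and 4.74 CPM with ChREBP-beta, against 2.09, 2.05 and 1.56 CPM with GFP. Its lowest ChREBP-beta library lay close to the GFP libraries, the log2 fold change was 0.91 (SE 0.275, adjusted p = 0.00672), and the call was lost without ChREBP-beta replicate 3 (log2 fold change 0.66, adjusted p = 0.0783). Summed over the 4 genes, FOXO transcripts stood at 98.2, 98.5 and 104 CPM with ChREBP-beta and 99.0, 105 and 108 CPM with GFP, which overlap.

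FOXO target genes were split between rises and falls. Of 42 listed, 34 were tested, of which 10 were higher, 13 lower and 11 not called (67.6% called, beside 58.7% of all genes). Their median log2 fold change was -0.08. Pdk4, Lpl and Bbc3, 3 of the 34, were called with at least a 2-fold change, beside 11.5% of all genes. Pdk4, a kinase that inactivates pyruvate dehydrogenase during fasting, averaged 5.26 ± 0.541 CPM with ChREBP-beta and 50.7 ± 0.534 CPM with GFP (SD, n = 3 each; adjusted p = 9.27e-21). The sestrin genes Sesn3 and Sesn1, which restrain mTORC1, were 1.88-fold and 1.59-fold lower, and Cited2, a CBP and p300 binding regulator, 1.52-fold lower (adjusted p = 7.50e-13, 9.11e-11 and 7.53e-13). Sesn2, the other sestrin gene listed, was not called (log2 fold change -0.01, adjusted p = 0.931). Lpl, the lipase that takes up fat from lipoproteins, averaged 88.0 ± 3.07 CPM with ChREBP-beta and 24.2 ± 0.276 CPM with GFP (SD, n = 3 each; adjusted p = 1.16e-19). Ctsl, a lysosomal protease of muscle wasting, rose 1.43-fold, the mitophagy receptor gene Bnip3 1.40-fold and Sod2, the mitochondrial superoxide dismutase with split reads in all 6 libraries, 1.30-fold (adjusted p = 8.31e-13, 6.34e-10 and 9.85e-08).

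By role, the members of that list also differed, as seen in genes picked after their values were known. Of the ubiquitin ligase genes, Fbxo21 was not called, and Fbxo32 (atrogin-1) and Fbxo30 were lower, Fbxo32 at 15.2 ± 1.34 CPM with ChREBP-beta and 19.7 ± 2.24 CPM with GFP (SD, n = 3 each; adjusted p = 0.00188), and Trim63 (MuRF1) had 5 counts over the ChREBP-beta libraries and 0 over the GFP libraries. The cell death genes Bcl2l11 and Bbc3 were 1.46-fold and 2.04-fold lower, the call of Bbc3 being lost without GFP replicate 1 (log2 fold change -0.84, adjusted p = 0.0556). Of the cell cycle brakes, Cdkn1a was 1.14-fold higher, and Cdkn1b, Ccng2 and Rbl2 were lower by 1.17-fold, 1.498-fold and 1.18-fold. The counts of Cdkn1a and Rbl2 include split reads in all 6 libraries. Gadd45a, also on the list, was not called (adjusted p = 0.442). Of the autophagy genes, Map1lc3b, a coat protein of autophagosomes, rose 1.27-fold and Gabarapl1 1.17-fold, Ulk2 was 1.09-fold lower (adjusted p = 0.0187), and Ulk1, Becn1, Atg12 and the mitophagy kinase gene Pink1 were not called. Ulk2 lost its call with DESeq2 (adjusted p = 0.0565) and without ChREBP-beta replicate 2 (0.0578), ChREBP-beta replicate 3 (0.127) or GFP replicate 3 (0.0875), and Fbxo30 lost its call without GFP replicate 2 (0.0919). With scaling by library size alone, Fbxo21 and Pink1 were called lower (adjusted p = 0.0199 and 0.0323). Mstn, the muscle growth inhibitor, had no counts in any library.

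Genes that act on FOXO proteins were split as well. Of 32 listed, 31 were tested, of which 11 were higher, 8 lower and 12 not called (61.3% called, beside 58.7% of all genes). Their median log2 fold change was 0.06, and none was called at 2-fold, beside 11.5% of all genes. Scaling by library size alone gave 8 higher and 12 lower, and a minimum mean CPM of 5 gave 9 higher and 11 lower. The genes of 14-3-3 proteins, which hold phosphorylated FOXO in the cytosol, went both ways, with 3 of 6 higher, 2 lower and 1 not called: Ywhag and Ywhab rose 1.23-fold and 1.15-fold, and Ywhaz, the one with the most counts, was 1.15-fold lower at 777 ± 4.95 CPM with ChREBP-beta and 896.5 ± 17.9 CPM with GFP (SD, n = 3 each; adjusted p = 2.75e-07). Akt2 was 1.13-fold lower and Akt1 1.11-fold higher (adjusted p = 1.25e-04 and 3.66e-04). Usp7, a deubiquitinase that acts on FOXO, rose 1.27-fold, and Sgk3, a kinase related to AKT, 1.85-fold from a low level (adjusted p = 2.68e-09 and 8.43e-05). Pik3r1, a regulatory subunit of PI3 kinase, was 1.28-fold lower and the deacetylase gene Sirt1 1.21-fold lower (adjusted p = 5.97e-09 and 7.62e-05).

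**Figure D3:**
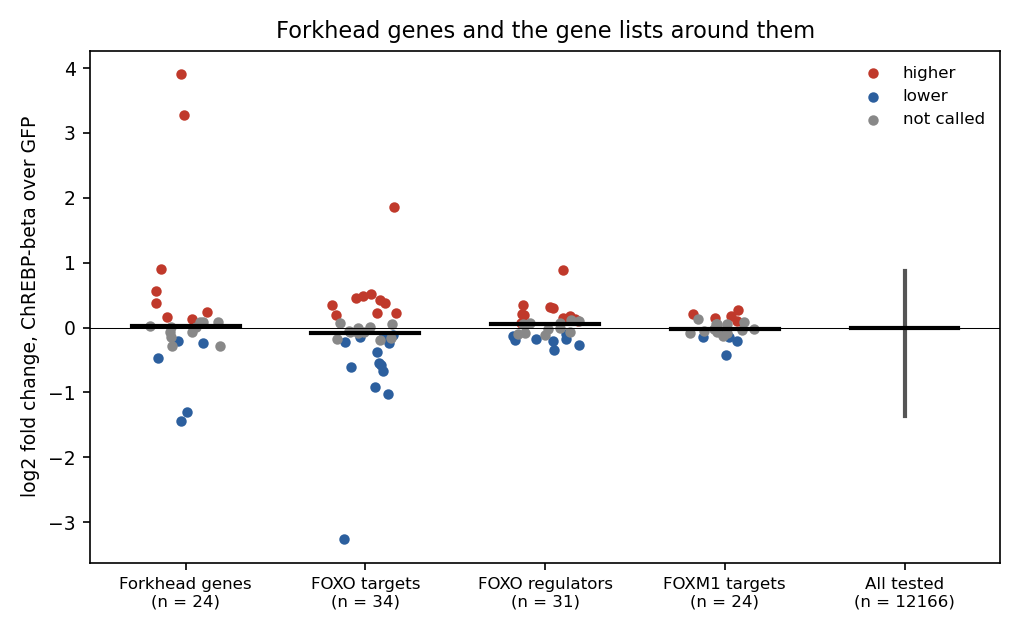
Points are tested genes, coloured by call, and the y axis is the log2 fold change of ChREBP-beta over GFP. Black bars are medians, from -0.08 for FOXO targets to 0.06 for FOXO regulators, and the grey line spans the 5th to 95th percentile of all genes tested, -1.37 to 0.87. Of the forkhead genes, Foxd1, Foxf1 and Foxo6 lie above that span and Foxa2 below it. Of the listed genes, Lpl and Sgk3 lie above it and Pdk4 below it.

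In the FOXN, FOXJ and FOXP subfamilies, Foxn2 and Foxj3 were called, both by small steps. Foxn2 was read at 66.2, 69.4 and 66.4 CPM with ChREBP-beta, against 53.5, 56.4 and 62.1 CPM with GFP, without overlap (log2 fold change 0.23, SE 0.0527, adjusted p = 5.42e-04). Its paralog Foxn3, a repressor linked to the DNA damage checkpoint, had 14.2 ± 0.633 CPM with ChREBP-beta and 15.8 ± 1.45 CPM with GFP (SD, n = 3 each; adjusted p = 0.192). Foxj3, which activates Mef2c in mouse muscle, had 59.1, 56.0 and 58.3 CPM with ChREBP-beta, against 55.6, 51.9 and 51.4 CPM with GFP. This was a log2 fold change of 0.12 (SE 0.0512, adjusted p = 0.0403) that 7 of 13 alternatives did not call, among them leaving out ChREBP-beta replicate 1 or 3 or GFP replicate 2 or 3, with an adjusted p of up to 0.195. Foxj2 averaged 39.3 ± 3.09 CPM with ChREBP-beta and 41.4 ± 1.72 CPM with GFP, and did not pass (adjusted p = 0.312).

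Foxp1, a repressor active in many tissues whose counts include split reads in 1 library, averaged 69.4 ± 0.693 CPM with ChREBP-beta and 72.6 ± 5.34 CPM with GFP (SD, n = 3 each; adjusted p = 0.268). Foxp4 averaged 33.7 ± 2.40 CPM with ChREBP-beta and 33.4 ± 0.192 CPM with GFP (adjusted p = 0.905, 95% interval of the log2 fold change -0.12 to 0.14). Foxn1, the thymic epithelial factor, was under 1 CPM on average in both groups and not called (adjusted p = 0.608).

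Ratios of a member to its paralog within a library do not depend on how libraries are scaled, and 8 such pairs were compared, chosen with the changes above known. Foxf1 had 0.817, 0.782 and 0.731 counts per count of Foxf2 in ChREBP-beta libraries 1 to 3, against 0.0660, 0.0442 and 0.0982 in GFP libraries 1 to 3. For Foxd1 over Foxd2 the ratios were 18.2, 18.6 and 24.9 with ChREBP-beta, against 1.17, 1.37 and 1.53 with GFP. Both pairs separated the ChREBP-beta from the GFP libraries. The common members shifted less: Foxk2 over Foxk1 averaged 3.99 ± 0.166 with ChREBP-beta and 3.26 ± 0.101 with GFP, and Foxo1 over Foxo3 averaged 0.953 ± 0.0192 and 0.766 ± 0.0399 (SD, n = 3 each). Foxc1 over Foxc2 averaged 1.49 ± 0.0725 with ChREBP-beta and 2.17 ± 0.0811 with GFP. In these pairs and in Foxj3 over Foxj2 and Foxn2 over Foxn3 the groups did not overlap, which is no result in itself for pairs chosen this way, since 63.2% of single genes did not overlap either. Each of these 7 pairs had p = 0.1 (two-sided exact permutation test), the smallest that 3 against 3 allows, or 0.114 after Benjamini-Hochberg adjustment over the 8. For Foxp1 over Foxp4 they overlapped (2.07 ± 0.133 with ChREBP-beta, 2.17 ± 0.165 with GFP, exact p = 0.4).

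**Figure D4:**
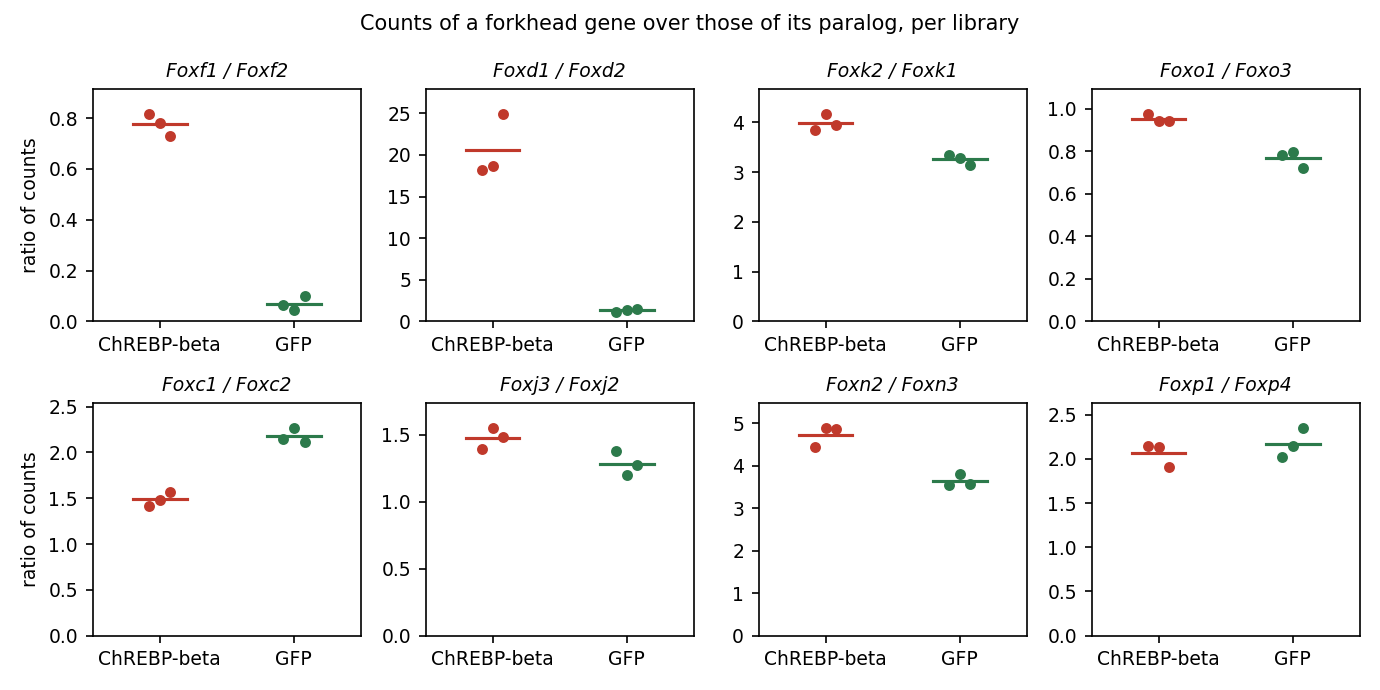
Each panel shows the ratio of counts of a forkhead gene to those of its paralog in every library (points) with the group mean (bar), from 0 upward and on a scale of its own. Foxf1 over Foxf2 was 0.731 to 0.817 with ChREBP-beta and 0.0442 to 0.0982 with GFP, while Foxp1 over Foxp4 overlapped.

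Summed over all 44 genes, forkhead transcripts stood at 938, 931 and 948 CPM with ChREBP-beta, against 823, 845 and 856 CPM with GFP, a difference of 97.7 CPM between the means. Foxk2 differed by 47.1 CPM, Foxd1 by 23.2, Foxm1 by 15.7 and Foxs1 by 13.5, while Foxc1 differed by -11.0 and Foxo3 by -7.81 CPM. Per kilobase of exon, Foxk2, Foxs1, Foxm1 and Foxn2 were the highest members with ChREBP-beta, and the same 4 with GFP, where Foxm1 (23.3 ± 0.456 CPM per kilobase) stood above Foxs1 (21.3 ± 1.28; SD, n = 3 each).

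The 20 members not tested were at or near 0. Foxj1, the factor of motile cilia, had 11 and 10 counts, Foxa3 had 1 and 10, the regulatory T cell factor Foxp3, with split reads, 8 and 5, and Foxa1 4 and 1 over the ChREBP-beta and GFP libraries. Foxi1 had 2 counts with ChREBP-beta and none with GFP, and Foxp2 and Foxl2 had none with ChREBP-beta and 2 and 1 with GFP. Foxb1, Foxb2, Foxd3, Foxd4, Foxe1, Foxe3, Foxh1, Foxi2, Foxi3, Foxn4, Foxr1 and Foxr2 had no counts in any of the 6 libraries, which allows a level of up to 0.0274 CPM (3 counts over all libraries, counting error only).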

How the data were processed

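RNA-seq counts from 6 samples were grouped by their titles. The authors deposited estimated counts for each gene symbol, without normalization, of which 7.74% are not whole (tolerance 1e-06); fractional counts are called split reads in the report. The submitters' processing notes name TopHat2 2.0.0, Bowtie2 2.0.0.5 and fastp. They give GRCg6a as genome, which is a chicken assembly, although the table lists mouse symbols. How reads were counted, with which annotation and with or without strand, was not given in the sources used here. Reads of a gene and of an antisense or overlapping neighbour therefore cannot be separated.

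Rows of repeated symbols (24) were summed and rounded. edgeR 4.0.16 (R 4.3.3) with filterByExpr (minimum count 10, minimum total 15), TMM scaling, glmQLFit and glmQLFTest compared the groups over 12166 genes, two-sided, with Benjamini-Hochberg adjustment. Standard errors are the log2 fold change over the square root of F, and 95% intervals use the test's degrees of freedom. The common biological coefficient of variation was 3.44%. The procedure was also run on counts simulated with a common dispersion and few changed genes. That setting differs from these data, so the run does not measure the error here. Libraries of a group differed by a chi-square per degree of freedom of 2.15 to 3.93 and were kept as 6 samples. GENCODE M21 (GRCm38) gave positions and exon lengths for all 44 members, by symbol. This may not be the authors' build, and exon length is the union over transcripts. Alternatives were RLE and library-size scaling, limma-voom (limma 3.58.1), DESeq2 1.42.0, no filter, a minimum mean CPM of 5, a replicate block, each library left out and a 2-fold minimum.

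The members, lists and tests were chosen with earlier results of these data known. Members with at least 1 CPM in the higher group were to be described in full, and of each list the up to 4 called genes with the smallest adjusted p in each direction were named. Other genes were named after their values were seen. The values of 1 member that was not tested are not reported here. Marker lists beside these (ciliated, endothelial, fibroblast, blood and neural cells) are reported with the other observations.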

Additional observations from a re-analysis of the deposited data

How the results depend on the processing

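Of 13 called forkhead genes, 9 (Foxd1, Foxf1, Foxk2, Foxs1, Foxm1, Foxn2, Foxo3, Foxc1 and Foxq1) kept their direction and their call under all 13 alternatives other than the 2-fold minimum. Foxf2, Foxj3, Foxo6 and Foxa2 lost it under 21 of their alternatives, the cause of which was not tested, and no member changed direction while called. The number of members called was 10 to 12 when each library was left out in turn (52.7% to 55.5% of all genes tested), 12 with RLE scaling (58.6%), 12 with library-size scaling (58.8%), 11 unfiltered (43.9%), 10 of 19 with a minimum mean CPM of 5 (62.3%), 11 with DESeq2 (53.0%) and 13 with limma-voom (59.2%). With a minimum of 2-fold, 4 forkhead genes, 3 FOXO targets, 0 FOXO regulators and 0 FOXM1 targets were called, by the construction of that rule. Of all genes tested, 11.5% were called under it. At any size, 19 regulators and 10 FOXM1 targets passed the test. FOXO targets called ranged from 21 to 23, FOXO regulators from 15 to 18 and FOXM1 targets from 9 to 12 when each library was left out.

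The replicate numbers gave no evident pairing: deviations from the group means of same-numbered libraries correlated at -0.01, 0.00 and -0.04 across genes. No library correlated best with its own number. These correlations cannot show whether the samples were prepared in pairs. With the replicate number as a block, 12 forkhead genes (without Foxf2, adjusted p = 0.0657), 23 FOXO targets, 16 FOXO regulators and 11 FOXM1 targets were called, and 6902 of all genes (56.7%). A gene at 1 CPM has few counts at this depth, and the intervals of Foxd2, Foxn1 and Foxa2 were the widest among the members tested.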

Other observations

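Markers of other cell types were read beside the forkhead genes. Of the ciliated cell markers, the 2 tested, Tppp3 and Ccdc39, were lower with ChREBP-beta, and the 5 in the table summed to 5.42 to 9.30 CPM with ChREBP-beta and 11.1 to 12.7 CPM with GFP. Endothelial markers summed to 3.06 to 6.91 CPM with ChREBP-beta and 0.785 to 5.24 CPM with GFP, with none of 4 tested called. Fibroblast and fibro-adipogenic markers summed to 875 to 900 CPM with ChREBP-beta and 827 to 861 CPM with GFP, with 4 of 6 higher and 2 lower. Blood and T cell markers summed to 4.63 to 8.38 CPM with ChREBP-beta and 4.50 to 8.36 CPM with GFP, with neither of the 2 tested called. Among neural markers Tubb3 was higher, Map2, Nes and Sox2 were lower and Olig2 was at 0 in all libraries.

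The members Foxd1 and Foxf1 changed about as much relative to their paralogs, by 3.92 and 3.56 on the log2 scale, as relative to the library, whereas the log2 ratios of the other 6 pairs moved by -0.55 to 0.38. These pairs were chosen with the changes known.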
